A study of Mus musculus with 35 samples.

Results

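Hippocampal nuclei of mice that carry both a mutated CLEAR element and the PS19 tau transgene were compared with nuclei of mice that carry the CLEAR mutation alone. The comparison took every single-nucleus library labelled with those genotypes, 4 of each, which is 8 of the 35 samples of the study. The rest are 3 wild-type and 3 PS19 single-nucleus libraries and bulk hippocampal RNA-seq. Those wild-type and PS19 single-nucleus libraries, used below for the other background, were also from mice aged 9 months, with replicates 1 and 2 male and replicate 3 female. All 8 libraries came from C57BL/6 mice aged 9 months, and in each group replicates 1, 2 and 3 were male and replicate 4 was female. The groups are called CLEAR (CLEAR mutant) and CLEAR_PS19 (CLEAR mutant crossed with PS19). The labels do not name the mutated gene; from knowledge of the study it is Atp6v1h, and both groups carry the mutation, so the transgene is the labelled difference between them. The PS19 transgene is driven by the Prnp (prion protein) promoter, which is active in many brain cells besides neurons. The labels do not say whether each library came from its own animal, so p-values measure the spread between these libraries, which may be technical.

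Tau, the product of Mapt, binds microtubules in axons, and the mutant human tau of PS19 mice aggregates in neurons of the hippocampus and is accompanied by activation of glia. The CLEAR element is a short promoter sequence bound by TFEB, a transcription factor that raises lysosomal and autophagy genes. Atp6v1h encodes a subunit of the V-ATPase, the proton pump that acidifies lysosomes. Astrocytes clear glutamate and buffer potassium around synapses, and microglia are the resident macrophages of the brain, which respond to tau pathology with chemokine, interferon-response and phagocytosis genes.

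Unique molecular identifiers (UMIs, a tag per captured RNA molecule) were summed per gene over all barcodes with 500 or more detected genes. There were 8183 to 9985 such barcodes in the CLEAR libraries and 8592 to 16070 in the CLEAR_PS19 libraries, 85019 of the 142840 in all 14 nuclei libraries. The sums came to 67774152 to 73994163 UMIs in CLEAR and 44879823 to 95914527 UMIs in CLEAR_PS19. Mitochondrial transcripts made up 0.00659% to 0.0160% of UMIs, and 10 to 58 barcode sequences were shared by any pair of libraries, at most 0.541% of the smaller library. Replicates 1 and 2 stood close together within each group: the chi-square statistic per gene between their sums was 4.06 in CLEAR and 5.35 in CLEAR_PS19, against 58.0 to 138 for every other pair of a group. Sampling noise alone gives about 1. That they differed by more than sampling noise does not show that they came from separate animals, so the main results are also given with replicates 1 and 2 of each group summed. In such sums, fewer cells of a type and less RNA per cell cannot be told apart.

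Genes of astrocytes such as Mfge8, S1pr1 and Slc7a10 were among those lower with the transgene, and the cytokine gene Tnf, the chemokine genes Ccl12 and Ccl4 and the interferon-induced gene Slfn8 were among those higher. Of 21513 genes tested with edgeR's quasi-likelihood test with sex as a covariate, 34 passed a Benjamini-Hochberg adjusted p of 0.05 (0.158%). Of these, 13 were higher (0.0604%) and 21 lower (0.0976%) in CLEAR_PS19, and 1655 genes (7.69%) had an unadjusted p under 0.05. The median log2 fold change of all tested genes was 0.01. In all 34 the 4 libraries of one group lay outside the range of the other group, while 2.1% of all tested genes lay wholly above and 1.76% wholly below. With the replicate number as a block, which pairs same-numbered libraries, 308 genes passed (1.43%), 107 higher (0.497%) and 201 lower (0.934%), all 34 among them. With DESeq2, 383 genes passed (1.78%), and these too included all 34, and 771 with DESeq2 and the block (3.58%).

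The number of calls rested on the close replicates. Leaving out CLEAR replicate 1 or 2 left 3 calls, leaving out CLEAR_PS19 replicate 1 left 4 and leaving out CLEAR_PS19 replicate 2 left 5, while leaving out CLEAR_PS19 replicate 3 gave 54. With replicates 1 and 2 summed, 2 genes passed without the block (0.00925%, with 888 or 4.11% at an unadjusted p under 0.05) and 39 with it (0.18%), 8 higher (0.037%) and 31 lower (0.143%). Of the 34, Gm43049, Gm32754 and Mfge8 were called whichever library was left out. With the block, the count without pair 1, 2, 3 or 4 was 74, 30, 180 and 980. A set of 28 genes was called in all 4 of those fits, 6 higher (4930590L14Rik, Gm32754, Gm43049, Ifi44, Slfn8 and Tnf) and 22 lower. Genes near 0 in CLEAR, such as Tnf, could pass the filter on low counts through CLEAR_PS19 alone.

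The transcripts that mark the transgene matched the labels in every library. Prnp, whose promoter drives the transgene (chr2:131909928-131938429, plus strand, GRCm38), stood at 77.0, 81.0, 62.5 and 66.9 CPM (UMIs per 1000000 UMIs of the TMM-normalized library total) in CLEAR replicates 1 to 4 and at 168, 177, 123 and 93.8 CPM in CLEAR_PS19. The groups did not overlap, with replicate 4 the lowest with the transgene. The log2 fold change of Prnp was 0.94 ± 0.16 (SE), which missed the threshold (edgeR adjusted p = 0.084) and passed it with the block (adjusted p = 0.0113), though not with the block after summing replicates 1 and 2 (adjusted p = 0.0731). Gm43049, an unnamed gene model on chromosome 3 (chr3:140692038-140760704, minus strand), had 20 UMIs over the 4 CLEAR libraries and 30688 over the 4 CLEAR_PS19 libraries, a ratio of 1408 (95% interval 911 to 2305, counting error only). The interval leaves out the spread between libraries: Gm43049 was at 0.125, 0.124, 0.0143 and 0.0146 CPM in CLEAR and 102, 99.9, 74.1 and 138 CPM in CLEAR_PS19. Its neighbour Gm32754 had 2 and 3825 UMIs, a ratio of 1754 (interval 485 to 14493). 4930590L14Rik, close by, had none in CLEAR and 510 in CLEAR_PS19, at least 156-fold higher against a floor of 3 counts over the group. These 2 neighbours of Gm43049 were the ones called among 6 tested within 1 Mb. Endogenous Mapt did not pass, at 386 ± 45 CPM in CLEAR and 416 ± 47.3 CPM in CLEAR_PS19 (SD, n = 4; edgeR adjusted p = 0.986). Atp6v1h, the gene of the mutated element, stood at 56.1 ± 1.98 and 59.3 ± 3.43 CPM (SD, n = 4; edgeR adjusted p = 0.973). Both overlap another annotated gene, as do 10 of the 34 called genes (Sav1, Id4, Lcat, Tril, Slc7a10, Gm12239, Wdr17, Entpd2, Gpr84 and Nat8f5), and whether strand was used in counting is not given in the sources used here, so their values are uncertain to that extent.

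**Figure D1:**
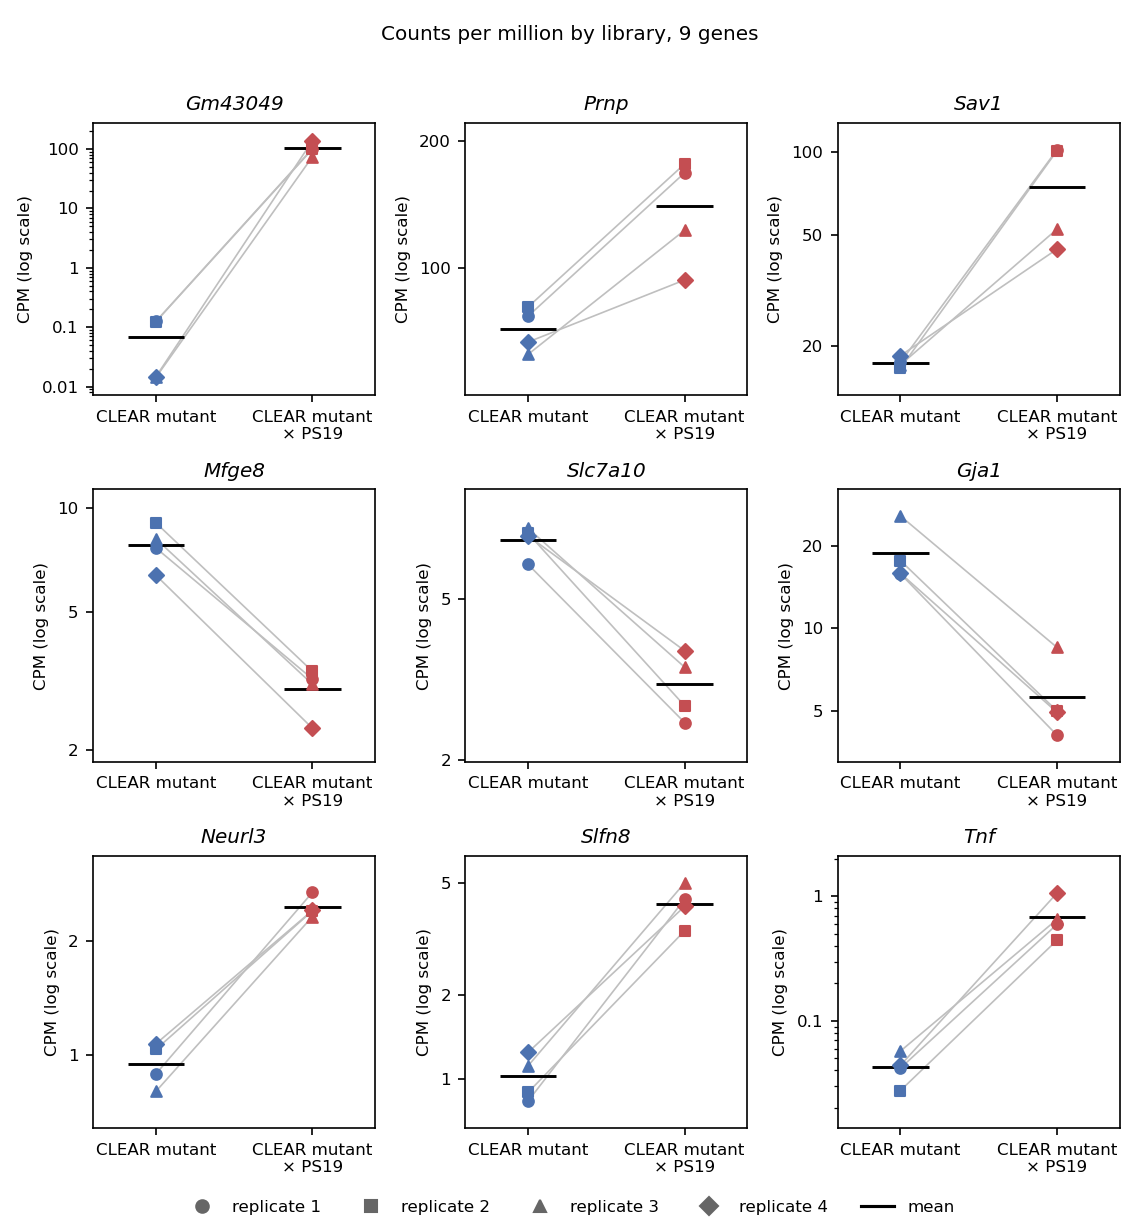
CPM (log axis) of 9 genes in the 4 CLEAR and 4 CLEAR_PS19 libraries; each point is a library, lines join same-numbered libraries and black bars are group means. In each gene shown, all 4 CLEAR_PS19 libraries lie on one side of all 4 CLEAR libraries, for example Mfge8 at 2.31 to 3.38 CPM against 6.41 to 9.09 CPM.

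Several genes of astrocytes were among the 21 that fell with the transgene. Mfge8, a secreted protein that bridges dying cells and debris to phagocytes, was at 7.69, 9.09, 8.17 and 6.41 CPM in CLEAR and 3.21, 3.38, 3.10 and 2.31 CPM in CLEAR_PS19. Every CLEAR_PS19 library was below every CLEAR library, and the log2 fold change was -1.39 ± 0.10 (SE; edgeR adjusted p = 0.00347, 0.0109 to 0.0389 with each library left out). With replicates 1 and 2 summed the adjusted p of Mfge8 was 0.153, and 0.0156 with the block as well. S1pr1, a receptor for the lipid sphingosine 1-phosphate, stood at 10.2, 10.1, 10.5 and 7.51 CPM and at 2.99, 3.08, 4.69 and 2.85 CPM, a log2 fold change of -1.49 ± 0.16 (adjusted p = 0.0195). The highest transgenic library, replicate 3, was still below the lowest CLEAR library, replicate 4. Slc7a10, the astrocytic transporter of D-serine, was at 6.10, 7.28, 7.50 and 7.18 CPM and at 2.47, 2.72, 3.39 and 3.73 CPM (-1.2 ± 0.14, adjusted p = 0.0251). Wdr17 was the most abundant of the 21 lower genes, at 362, 353, 407 and 452 CPM against 204, 209, 215 and 279 CPM (-0.80 ± 0.08, adjusted p = 0.0167).

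Other lower genes encode lipid and signalling proteins of astrocytes. Clu, an extracellular chaperone that binds lipids, fell from 41.3 ± 6.42 to 23.8 ± 5.78 CPM (SD, n = 4; edgeR adjusted p = 0.0301). Lcat, which esterifies cholesterol on lipoproteins, fell by 1.34 on the log2 scale, and Id3 and Id4, inhibitors of DNA binding that act below BMP receptors, fell by 1.18 and 1.34. Entpd2, which breaks down extracellular ATP, fell by 1.49, the secreted matrix protein Thbs4 by 1.73, and Gpr37l1, an orphan receptor of astrocytes, by 1.03. The largest fall among the 21 genes was that of Nat8f5 (2.21 on the log2 scale), which was under 1 CPM in all libraries and belongs to a family of similar genes, so its value is uncertain. With replicates 1 and 2 summed and the block, 9 of the 21 lower genes were called (Clu, Gm12239, Gpr37l1, Mfge8, Ndrg2, Ntsr2, S1pr1, Slc7a10 and Wdr17), and Lcat, Id3, Id4, Entpd2, Thbs4 and Nat8f5 were not.

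In the list of 10 astrocyte markers 9 were below 0. Of them, 1 was called lower without the block (Slc7a10), 9 with it and 7 with replicates 1 and 2 summed and the block (all but Slc1a3 and Aldh1l1 of the 9). Gfap, an intermediate filament protein that increases in reactive astrocytes, was called in none of these fits, at 4.14 ± 1.26 and 4.59 ± 2.70 CPM (SD, n = 4; edgeR adjusted p = 0.999). The median log2 fold change of the list was -1.15, and its summed level was 352 to 629 CPM in CLEAR and 218 to 347 CPM in CLEAR_PS19. Gja1, the gap junction protein connexin 43, stood at 15.8, 17.6, 25.7 and 15.8 CPM and at 4.07, 4.99, 8.50 and 4.93 CPM. The groups of Gja1 did not overlap, and its log2 fold change of -1.74 ± 0.25 had an edgeR adjusted p of 0.0518 without the block and 0.000398 with it. Slc1a2, the main glutamate transporter, was at 233, 242, 402 and 413 CPM and at 156, 167, 239 and 232 CPM. Its groups overlapped across replicate numbers, while each transgenic library was below its same-numbered partner (block adjusted p = 0.00598). Plpp3, which breaks down lipid phosphates, also fell with the block (block adjusted p = 0.000934).

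To see where these genes were transcribed, barcodes were picked by their markers: 3 or more of the 10 astrocyte markers detected (Aqp4, Slc1a2, Slc1a3, Gja1, Aldh1l1, Gfap, Fgfr3, Slc7a10, Acsbg1 and Gli3) and 50 or more astrocyte marker UMIs per 10000. These astrocyte-marker-rich barcodes made up 3.66%, 3.74%, 6.29% and 5.25% of the CLEAR libraries and 0.775%, 0.884%, 2.01% and 1.85% of the CLEAR_PS19 libraries. All 4 transgenic libraries were below all 4 CLEAR libraries, at a mean of 1.38% ± 0.642 against 4.74% ± 1.27 (SD, n = 4; exact permutation test, two-sided p = 0.0286, the smallest that 70 relabellings allow; 0.0286 adjusted over the astrocyte and microglia shares). The summed levels of the same markers already separated the groups, so this p is not separate support, and the relabellings ignore the pairing of same-numbered libraries. With each barcode thinned to 1000 UMIs, which left out 855 shallower CLEAR and 2576 shallower CLEAR_PS19 barcodes, the shares were 3.35% to 5.19% and 0.730% to 1.79%, again without overlap. In all, 1758 CLEAR and 595 CLEAR_PS19 barcodes were chosen, and 235 and 112 lay near the threshold, at 30 to 70 marker UMIs per 10000. With replicates 1 and 2 summed the groups hold 3 values each, which cannot give a p under 0.1. The selection is a range of marker levels and not a cell type called by clustering.

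**Figure D2:**
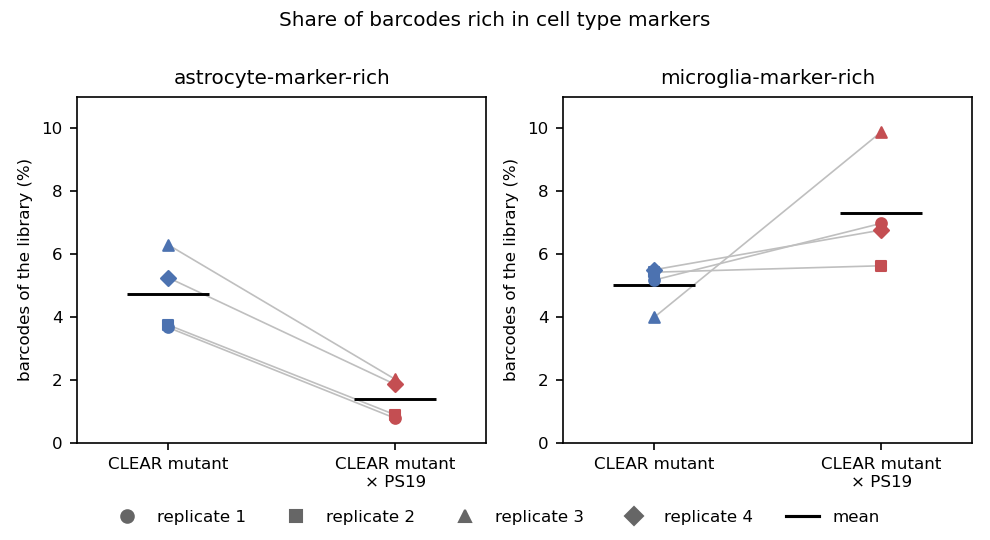
Percent of barcodes rich in astrocyte markers (left) and in microglia markers (right) in each library, with same-numbered libraries joined and black bars at group means. Astrocyte-marker-rich barcodes made up 3.66% to 6.29% of CLEAR and 0.775% to 2.01% of CLEAR_PS19 libraries, and microglia-marker-rich barcodes 3.98% to 5.50% and 5.63% to 9.88%, which overlapped when barcodes under 1000 UMIs were left out.

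The lower genes were concentrated in those barcodes. All 21 called lower and 166 of the 201 lower with the block (82.6%) were 4-fold or more richer in astrocyte-marker-rich barcodes than in the other barcodes of the CLEAR libraries, against 8.07% of all tested genes. Within the astrocyte-marker-rich barcodes alone, the 21 genes had log2 fold changes of -0.99 to 0.08 with a median of -0.13, against -1.19 over all barcodes, and none was called (lowest block adjusted p = 0.292). Mfge8 was at 356, 393, 182 and 184 CPM in the astrocyte-marker-rich barcodes of CLEAR and 494, 420, 161 and 153 CPM in those of CLEAR_PS19 (edgeR adjusted p = 1.00). Replicates 1 and 2 were high and replicates 3 and 4 low in both groups. The barcodes were chosen by the level of astrocyte markers, Slc7a10 of the 21 genes among them, so fewer such cells and a lower level per cell cannot be told apart from these values. A p that misses the threshold does not show that the levels were equal.

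**Figure D3:**
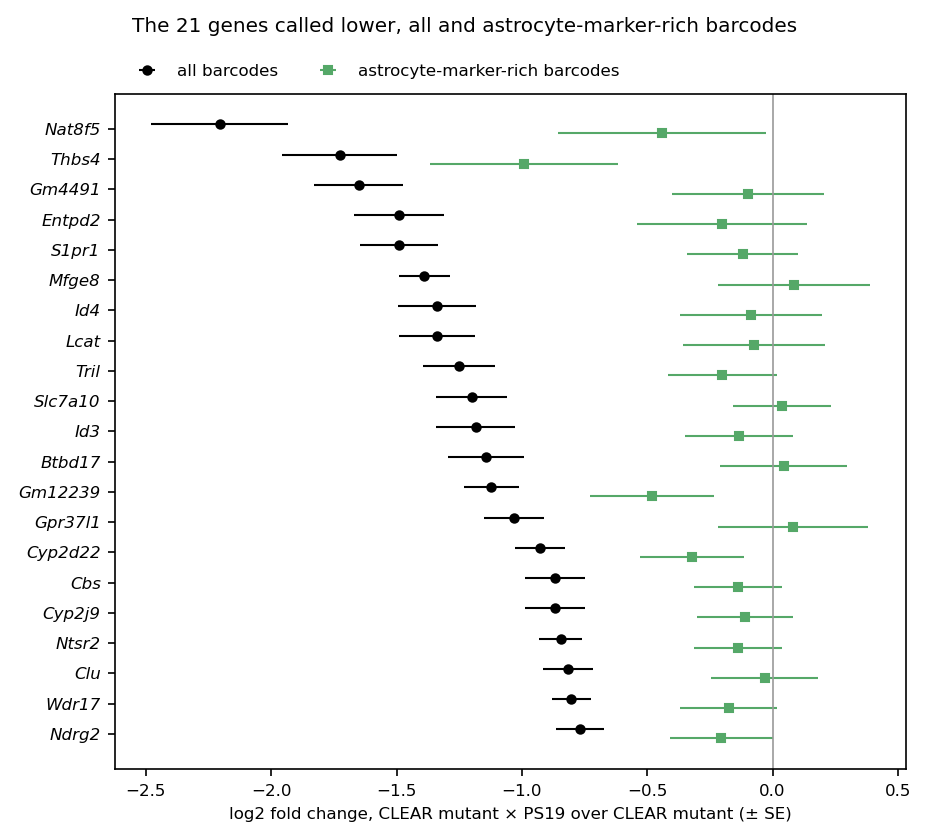
Log2 fold change (CLEAR_PS19 over CLEAR, with SE) of the 21 lower genes in sums over all barcodes and in sums over astrocyte-marker-rich barcodes. The median is -1.19 over all barcodes and -0.13 within the astrocyte-marker-rich barcodes.

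Within astrocyte-marker-rich barcodes 9846 genes were tested and edgeR called none (0.0%; 324 or 3.29% at an unadjusted p under 0.05), while DESeq2 called Gfap. With the block 3 genes were called, all higher (0.0305%): Gfap, Cpne8 and Unc13c. Gfap, which was also among the markers that chose the barcodes, was at 158, 166, 145 and 110 CPM in CLEAR and 246, 220, 479 and 391 CPM in CLEAR_PS19, with no overlap (block adjusted p = 0.0211). Cpne8, a calcium-dependent membrane-binding protein, had a log2 fold change of 1.43 with the block and Unc13c, a synaptic vesicle priming protein, 0.95. In the CLEAR libraries Cpne8 stood in these barcodes at 0.243 times its level in other barcodes, and the part of free RNA from other cells in its value was not tested. With replicates 1 and 2 summed and the block no gene was called.

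An interferon-induced gene and a cytokine gene were among the 13 higher genes. Slfn8, of the Schlafen family, was at 0.834, 0.895, 1.11 and 1.24 CPM in CLEAR and 4.38, 3.38, 5.01 and 4.13 CPM in CLEAR_PS19. The lowest transgenic library was above the highest CLEAR library, with a log2 fold change of 2.06 ± 0.18 (edgeR adjusted p = 0.0104). Tnf, the inflammatory cytokine, was low in CLEAR at 0.0417, 0.0275, 0.0571 and 0.0439 CPM and was 0.596, 0.444, 0.653 and 1.06 CPM in CLEAR_PS19 (3.92 ± 0.31, adjusted p = 0.00539). Both were also called with replicates 1 and 2 summed and the block (adjusted p = 0.0156 for Slfn8 and 0.0177 for Tnf). The filter on low counts keeps a gene that is high in either group alone. Tnf, near 0 in every CLEAR library, could enter through CLEAR_PS19, so its calls are not separate from the filter.

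Chemokines and receptors were also among the 13 higher genes. Ccl12 and Ccl4, which attract monocytes and other leukocytes, rose from 0.344 ± 0.147 to 1.46 ± 0.653 CPM and from 0.424 ± 0.168 to 1.60 ± 0.560 CPM (SD, n = 4; edgeR adjusted p = 0.0334 and 0.0453). Both belong to a cluster of similar chemokine genes. Gpr84, a receptor for medium-chain fatty acids on myeloid cells, had a log2 fold change of 1.61 (adjusted p = 0.0376), Neurl3, a ubiquitin ligase, 1.38 (adjusted p = 0.0195), and Bst2, which tethers virus particles to cells, 1.23 (adjusted p = 0.0453). Summing replicates 1 and 2 and adding the block left 7 of the 13 called, Ccl12 among them, while Ccl4, Gpr84, Neurl3, Bst2, Sav1 and 1700030L20Rik were not (block adjusted p = 0.0578 for Ccl4 and 0.054 for Neurl3). Of the 13 higher genes, 8 (61.5%) were 4-fold or more richer in microglia-marker-rich barcodes of CLEAR than in other barcodes, and of the 107 higher with the block, 69 (64.5%), against 11.7% of all tested genes.

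All 23 tested genes of the interferon-response list had a log2 fold change above 0, with a median of 0.86, where 11498 of all 21513 tested genes were above 0. The microglia markers moved with them: 11 of 12 were above 0 with a median of 0.65, none was called, and their summed level was 265 to 349 CPM in CLEAR and 406 to 513 CPM in CLEAR_PS19, without overlap. Their part in the levels of the immune lists over all barcodes was not tested. Slfn8 and Bst2 were called without the block and 10 with it, adding Ifit3, Ifi27l2a, Ifi204, Ifi207, Irf7, Oasl2, Usp18 and Ddx60. In 13 of the 23 the CLEAR_PS19 libraries lay wholly above the CLEAR libraries (2.1% of all tested genes did). Usp18, which limits interferon signalling, was at 0.417, 0.303, 0.428 and 0.483 CPM and at 1.22, 1.2, 2.6 and 1.32 CPM (block adjusted p = 0.0126). Ifi204, of the DNA-sensing family on chromosome 1 whose members resemble each other, was at 0.334, 0.262, 0.200 and 0.293 CPM and at 1.15, 1.32, 3.70 and 1.32 CPM (block adjusted p = 0.0219). Replicate 3 was the highest transgenic library in both. Slfn8 was the one of the 10 still called with replicates 1 and 2 summed and the block, and the other 9 had adjusted p of 0.054 (Ddx60) to 0.198 (Irf7).

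Interferon-stimulated genes often carry a response element near their start, in which GAAA repeats after a short spacer. Of the 10 list genes called with the block, 7 had a promoter window in the table: Slfn8, Ifit3, Ddx60, Bst2 and Ifi207 held such repeats, and Irf7 and Oasl2 did not. The first 4 are shown as examples of windows with a match, chosen for that match; the windows are from RefSeq (GRCm38.p6), run from 250 bases before to 50 bases after the gene's start and are written on the gene's strand. Capitals mark the motif searched on both strands, GAAA, any 2 bases and GAAA again, or its reverse complement with TTTC, and matches may overlap. The windows are chr11:83020673-83020972 (minus strand) for Slfn8, chr19:34583279-34583578 (plus) for Ifit3, chr8:61927837-61928136 (plus) for Ddx60 and chr8:71537423-71537722 (minus) for Bst2.
Slfn8: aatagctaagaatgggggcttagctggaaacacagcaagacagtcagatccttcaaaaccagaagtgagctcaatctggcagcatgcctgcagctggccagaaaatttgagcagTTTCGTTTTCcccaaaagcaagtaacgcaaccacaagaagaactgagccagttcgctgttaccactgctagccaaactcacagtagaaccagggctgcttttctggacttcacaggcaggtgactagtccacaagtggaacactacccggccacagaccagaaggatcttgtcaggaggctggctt
Ifit3: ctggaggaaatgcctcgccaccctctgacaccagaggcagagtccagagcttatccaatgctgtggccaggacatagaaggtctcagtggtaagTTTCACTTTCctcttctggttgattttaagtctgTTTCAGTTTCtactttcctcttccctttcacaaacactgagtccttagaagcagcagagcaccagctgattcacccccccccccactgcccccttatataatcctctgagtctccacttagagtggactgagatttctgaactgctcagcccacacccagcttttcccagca
Ddx60: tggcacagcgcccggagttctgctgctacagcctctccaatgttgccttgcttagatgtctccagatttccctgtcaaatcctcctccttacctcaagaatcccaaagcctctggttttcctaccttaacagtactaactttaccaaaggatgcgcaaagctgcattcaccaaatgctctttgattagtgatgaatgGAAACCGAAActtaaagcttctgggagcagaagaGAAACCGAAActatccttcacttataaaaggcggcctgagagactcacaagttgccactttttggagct
Bst2: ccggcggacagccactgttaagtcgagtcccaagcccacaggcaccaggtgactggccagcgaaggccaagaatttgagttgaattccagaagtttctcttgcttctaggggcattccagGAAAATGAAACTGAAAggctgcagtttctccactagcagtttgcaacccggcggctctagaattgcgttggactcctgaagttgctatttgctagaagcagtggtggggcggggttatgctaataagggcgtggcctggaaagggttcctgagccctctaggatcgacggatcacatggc
The Slfn8 window held 1 match and each of the other windows 2, which in Bst2 overlap. Of the 17 tested list genes with a window 10 held it (58.8%), against 3.99% of all 27025 genes with a window. The list was made of interferon-response genes, changed or not, so this excess comes with the choice of list and is not a result of the transgene comparison. A match is a description of these letters and not a binding site.

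Barcodes rich in microglia markers were picked in the same way from a list of 12 markers, among them Csf1r, Cx3cr1, P2ry12 and C1qa. They made up 5.17%, 5.42%, 3.98% and 5.50% of CLEAR and 6.97%, 5.63%, 9.88% and 6.76% of CLEAR_PS19 libraries, 1903 and 3321 barcodes (286 and 619 with 30 to 70 marker UMIs per 10000). The mean was 5.02% ± 0.704 against 7.31% ± 1.81 (SD, n = 4; exact permutation test, two-sided p = 0.0286, the smallest possible). Here too the summed levels of the same markers already separated the groups, so this p is not separate support. All 4 transgenic libraries were above their same-numbered partners. The difference rested in part on shallow barcodes: with the 855 CLEAR and 2576 CLEAR_PS19 barcodes under 1000 UMIs left out, the shares were 3.98% to 5.20% and 4.02% to 9.86%, 2 of 4 pairs were higher, and the exact permutation p was 0.286. Thinning the remaining barcodes to 1000 UMIs gave 4.01% to 5.22% and 4.10% to 9.66%, again with 2 of 4 pairs higher (exact permutation p = 0.257). With 100 or more marker UMIs per 10000 the groups overlapped (exact permutation p = 0.0571) while all 4 pairs were higher. Leaving out any CLEAR library gave an exact permutation p of 0.0571, with groups that did not overlap and a difference of 1.95 to 2.45 points. The median UMIs of these barcodes were 1504 to 2042.5 in CLEAR and 1097 to 2473 in CLEAR_PS19. As for other immune cells, the summed border macrophage markers were 17.7 to 18.8 CPM and 12 to 24.1 CPM, and the T cell markers 16.5 to 24.2 CPM and 15.9 to 24.1 CPM, and none of either list was called. As 0.158% of all tested genes were called, such short lists would hold few calls.

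Within microglia-marker-rich barcodes, Csf1, Lpl and Cd9 of the disease-associated list rose, 3 of its 24 tested genes. Of 10002 genes tested there, edgeR called 20 (0.2%), 18 higher (0.18%) and 2 lower (0.02%), and with the block 84 (0.84%), 64 higher (0.64%) and 20 lower (0.2%). Csf1, the growth factor of microglia, was at 18, 15, 17.1 and 17 CPM in CLEAR and 76.2, 94.5, 145 and 69.7 CPM in CLEAR_PS19. The groups were far apart, with a log2 fold change of 2.51 ± 0.26 (edgeR adjusted p = 0.00629), and Csf1 over all barcodes was 13.7 ± 1.80 and 21.1 ± 6.19 CPM (SD, n = 4). Lpl, which releases fatty acids from lipoproteins, was at 8.41, 12.7, 7.14 and 6.78 CPM and at 31.2, 33.4, 78.6 and 28.2 CPM (2.27 ± 0.39, adjusted p = 0.0469). Cd9, a tetraspanin, was at 221, 229, 271 and 187 CPM and at 644, 645, 616 and 217 CPM (1.13 ± 0.19, adjusted p = 0.0469). For Cd9 the transgenic replicate 4 lay inside the CLEAR range and the other 3 far above it.

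All 24 tested genes of the disease-associated microglia list were above 0 in these barcodes, with a median log2 fold change of 1.04 against 0.00 for all 10002 genes. The filter on low counts left 24 of the 28 tested there and keeps a gene that is high in either group alone. Members low in CLEAR could thus enter through CLEAR_PS19, so these signs are not separate from the filter. Of the 24, 3 were called and 9 with the block, adding Itgax, Axl, Ank, Apbb2, Myo1e and Arhgap24. Csf1 was the one of these 9 still called with replicates 1 and 2 summed and the block. Over all barcodes, 26 of 28 tested members were above 0, with a median of 0.53, beside the median of 0.65 of the microglia markers. The summed level of the list overlapped, at 764 to 806 CPM in CLEAR and 720 to 1020 CPM in CLEAR_PS19, and was higher in 3 of 4 pairs. CLEAR_PS19 replicate 4, at 720 CPM, lay below every CLEAR library. Ccl4 was called over all barcodes, and 5 were with the block (Itgax, Csf1, Ccl3, Ccl4 and Lag3). None of these 5 was called with replicates 1 and 2 summed as well (edgeR block adjusted p of 0.0578 to 0.195). The homeostatic list had 14 of 15 above 0 over all barcodes (median 0.37, none called) and went the other way within the microglia-marker-rich barcodes: 1 of 15 was above 0, the median was -0.19, and 1 was called, with the block. That gene was Selplg, a ligand of selectins, at 851, 804, 828 and 751 CPM and at 612, 591, 367 and 505 CPM (-0.64 ± 0.17, edgeR adjusted p = 0.215; 0.0488 with the block, a call lost with replicates 1 and 2 summed). Every transgenic library was below every CLEAR library. Of the 15 homeostatic genes, 6 also served to choose the barcodes, Cx3cr1 and P2ry12 among them, so their values there are a description, while no gene of the disease-associated list did.

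All 16 tested members of the interferon-response list were above 0 within these barcodes too, with a median log2 fold change of 0.84, and 3 were called (Slfn8, Oasl2 and Ifi204), 5 with the block. The filter on low counts left 16 of the 23 members tested there, and it keeps a gene that is high in either group alone. Genes low in CLEAR, such as Oasl2 and Tnf, could enter through CLEAR_PS19, so these signs and calls are not separate from the filter. Slfn8 was at 64.9, 66.8, 82.8 and 73.5 CPM and at 210, 173, 136 and 204 CPM (1.33 ± 0.17, edgeR adjusted p = 0.01). Oasl2, of the oligoadenylate synthetase family, was at 2.40, 1.15, 2.86 and 4.52 CPM and at 18.9, 17.8, 29.2 and 30.8 CPM (3.14 ± 0.39, adjusted p = 0.00854). Tnf was at 1.2, 0, 5.71 and 1.13 CPM and at 24.5, 22, 18 and 45.6 CPM (3.79 ± 0.55, adjusted p = 0.0217). Of the 8 called higher genes that were rich there, all 8 were above 0 within these barcodes, with a median of 1.08 against 1.79 over all barcodes, and 2 were called, 4 with the block. These 8 were chosen as higher in sums that include the same barcodes, so their signs and calls there are not separate support. The 2 lower genes were Hpgd, which degrades prostaglandins (300 ± 119 to 101 ± 49.7 CPM), and Upk1b, a tetraspanin (79.9 ± 29.0 to 27.4 ± 13.2 CPM; SD, n = 4; edgeR adjusted p = 0.0469 and 0.024).

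Here the count of 20 depended on the close CLEAR replicates. It was 2 without CLEAR replicate 1 and 3 without CLEAR replicate 2, against 18 and 16 without CLEAR_PS19 replicate 1 or 2, and 52, 50 and 51 without CLEAR replicate 4, CLEAR_PS19 replicate 3 or CLEAR_PS19 replicate 4. With replicates 1 and 2 summed edgeR called none (0 genes), and with the block as well it called 8: Fgr, Csf1, Fam20c, Ifi44, Olfr111, Oasl2 and Gcnt2 higher and Upk1b lower. The calls of Lpl, Cd9, Slfn8, Ifi204, Tnf and Hpgd there were lost in that fit.

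**Figure D4:**
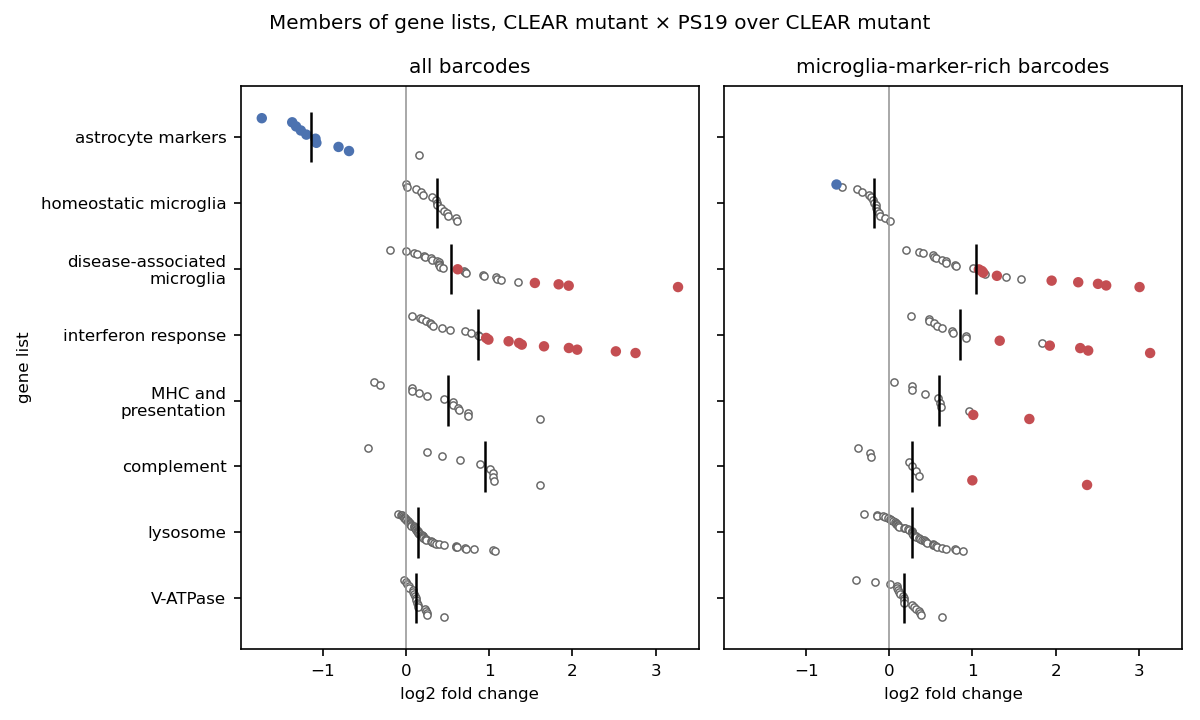
Log2 fold change (CLEAR_PS19 over CLEAR) of each tested gene of 8 lists, in sums over all barcodes (left) and over microglia-marker-rich barcodes (right); filled points were called with the block and bars are medians. The disease-associated list has a median of 0.53 over all barcodes and 1.04 within the microglia-marker-rich barcodes, and the homeostatic list 0.37 and -0.19.

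Genes of antigen presentation and complement were mostly above 0 without calls. In the MHC and presentation list 12 of 14 tested genes were above 0 with a median of 0.51, and in the complement list 9 of 10 with a median of 0.94, and no gene of either list was called with or without the block. With 0.158% of all tested genes called, and 1.43% with the block, lists this short would hold few calls. C4b, a complement component, was at 7.56, 7.38, 3.84 and 7.74 CPM and at 16.3, 14.3, 34.9 and 15.7 CPM. Its groups did not overlap, and replicate 3 was the lowest CLEAR and the highest CLEAR_PS19 library (edgeR adjusted p = 0.182; 0.101 with the block). Within microglia-marker-rich barcodes the block called H2-D1 and Nlrc5 of the first list and C4b and C3ar1 of the second, and none of these 4 was called there with replicates 1 and 2 summed as well.

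Genes of the lysosome, of its proton pump and of autophagy, among them targets of TFEB, had no called member. Of all tested genes 0.158% were called, and 1.43% with the block, a share at which lists of this size would hold few calls. In 7 lysosomal, 2 V-ATPase and 0 autophagy and TFEB genes the CLEAR_PS19 libraries lay wholly above the CLEAR libraries, where 2.1% of all tested genes did. Of 52 lysosomal genes 44 were above 0 with a median log2 fold change of 0.14, and of 19 V-ATPase genes 18 were above 0 with a median of 0.12. The list of autophagy and TFEB genes had 11 of 19 above 0 and a median of 0.01, as over all tested genes. No member was called with or without the block, over all barcodes or within the microglia-marker-rich barcodes. There the medians of the 3 lists were 0.27 (41 of 47 above 0), 0.18 (17 of 19) and 0.09 (10 of 18). In the astrocyte-marker-rich barcodes, where none was called either, the medians were -0.03 for the lysosome (17 of 39 above 0), 0.14 for the V-ATPase (15 of 19) and -0.04 for autophagy and TFEB (7 of 18).

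Among the other cell types, oligodendrocyte markers were above 0 in 10 of 10 (median 0.29). The log2 difference of their summed level was 0.32, and 0.11 over barcodes with 1000 or more genes. Of these markers, Cldn11 and Ermn, a myelin tight junction protein and a cytoskeletal protein of myelinating cells, rose with the block (adjusted p = 0.022 and 0.0275) but were not called with replicates 1 and 2 summed as well (0.122 and 0.146). All 8 endothelial markers were below 0 with a median of -0.90 and none was called, and their summed level of 16.5 to 45.1 CPM in CLEAR overlapped that of 8.52 to 28.8 CPM in CLEAR_PS19. That sum was lower in all 4 pairs, though nearly equal in replicate 4 (16.5 and 16.3 CPM). The 8 pericyte and muscle markers were also all below 0 (median -0.64). Their sums overlapped, at 16.5 to 25.1 and 7.93 to 17.3 CPM, and were lower in all 4 pairs. Pdgfrb of the pericyte list and Col1a1, Col1a2, Igf2 and Bnc2 of the fibroblast list fell with the block, and none of these 5 was called with replicates 1 and 2 summed as well (block adjusted p of 0.0731 to 0.129). Fibroblast marker sums overlapped, at 20.1 to 45.5 and 20.6 to 25.8 CPM. No gene of the dentate granule, CA1, CA3 or interneuron lists was called with or without the block. Of all tested genes 0.158% were called, and 1.43% with the block, so cell type lists of this size would hold few calls. The dentate granule markers were below 0 in 9 of 10 (median -0.20), and their sum was lower in all 4 pairs, at 1800 to 2367 CPM in CLEAR and 1740 to 2088 CPM in CLEAR_PS19, while the medians of the CA1, CA3 and interneuron lists were 0.05, 0.05 and 0.25. The part of the dentate granule markers in the levels of activity-regulated genes was not tested. Of 21 activity-regulated genes 8 were above 0 (median -0.16), and Npas4, a transcription factor induced by neuronal firing, fell with the block: it was at 15.2, 15.6, 10.9 and 17.9 CPM and at 8.84, 8.28, 9.00 and 9.79 CPM (-0.72 ± 0.13, edgeR adjusted p = 0.0886; 0.032 with the block, and 0.164 with replicates 1 and 2 summed as well). The reactive astrocyte list had 9 of 13 above 0 with a median of 0.15, and 8 of 8 with a median of 0.92 within astrocyte-marker-rich barcodes. The filter on low counts left those 8 of the 13 there, and it keeps a gene that is high in either group alone. Gfap of this list also served to choose the barcodes. The one member of the list called over all barcodes, with the block, was Serpina3n, a protease inhibitor of reactive glia. It rose from 2.28 ± 0.363 to 4.81 ± 1.23 CPM (SD, n = 4), with a block adjusted p of 0.029, and 0.122 with replicates 1 and 2 summed as well.

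Sav1 was the most abundant of the 13 higher genes besides Gm43049. It encodes a scaffold of the Hippo growth-control pathway (chr12:69965012-69987002, minus strand) and stood at 17.5, 16.6, 17.1 and 18.5 CPM in CLEAR and 101, 101, 52.6 and 44.6 CPM in CLEAR_PS19. The CLEAR libraries were nearly alike, and the transgenic libraries split into replicates 1 and 2 and replicates 3 and 4. The log2 fold change was 2.06 ± 0.26 (edgeR adjusted p = 0.0301; 0.054 with replicates 1 and 2 summed and the block). None of 39 tested genes within 1 Mb was called. On the wild-type background Sav1 was at 15.4, 46.9 and 35.7 CPM in WT and 17.6, 52.7 and 44.5 CPM in PS19 replicates 1 to 3, so it varied between libraries with and without the transgene there. Sav1 overlaps Atl1, so its value is uncertain.

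Whether the transgene acted differently on the mutant background was tested in a fit over all 14 nuclei libraries, as the interaction of transgene and CLEAR mutation. The 2 effects share no library. All 34 called genes had the same sign in PS19 against WT and 27 were called there, where 1491 of 22347 tested genes were called in all. Of the 308 genes called with the block, 271 had the same sign there and the others did not. No gene of 22347 passed the interaction test with edgeR (0.0%; 1882 or 8.42% at an unadjusted p under 0.05, 0 with the block), and DESeq2 called 56 (0.251%), 15 (0.0671%) with a more positive and 41 (0.183%) with a more negative log2 fold change on the CLEAR background. Without CLEAR_PS19 replicate 4 edgeR called 16, and without PS19 replicate 3 or CLEAR replicate 4 it called 1.

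The immune lists had lower medians on the CLEAR background. The median log2 fold change was 0.86 for the interferon-response list, against 2.02 in PS19 over WT. It was 0.53 against 1.46 for the disease-associated list and 0.51 against 2.05 for the presentation list. The medians of the microglia markers were lower there too, at 0.65 against 1.34, and those of the homeostatic list were 0.37 and 0.72; their part in the immune lists was not tested. For the astrocyte list the medians were -1.15 and -1.03. Some lists had medians of opposite sign on the CLEAR and wild-type backgrounds. These were -0.90 and 0.73 for the endothelial list, -0.64 and 0.25 for the pericyte and muscle list, and -1.24 and 0.79 for the fibroblast list. These differences of medians were not tested. The medians on the CLEAR background come from the fit of the 8 libraries and those of PS19 over WT from the fit of all 14, each with its own normalization and filter. The genes nearest to the threshold of the interaction included H2-K1, an MHC class I heavy chain, whose log2 fold change was 0.62 on the CLEAR background and 2.11 on the wild-type background (interaction, edgeR adjusted p = 0.347), and Ccl4, at 1.95 and 4.82 (interaction, edgeR adjusted p = 0.347). Neither passed the threshold, so a difference between backgrounds was not shown for either gene. Mfge8 fell by 1.39 and by 1.59 on the 2 backgrounds, with an interaction of 0.21 (edgeR adjusted p = 0.954).

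**Figure D5:**
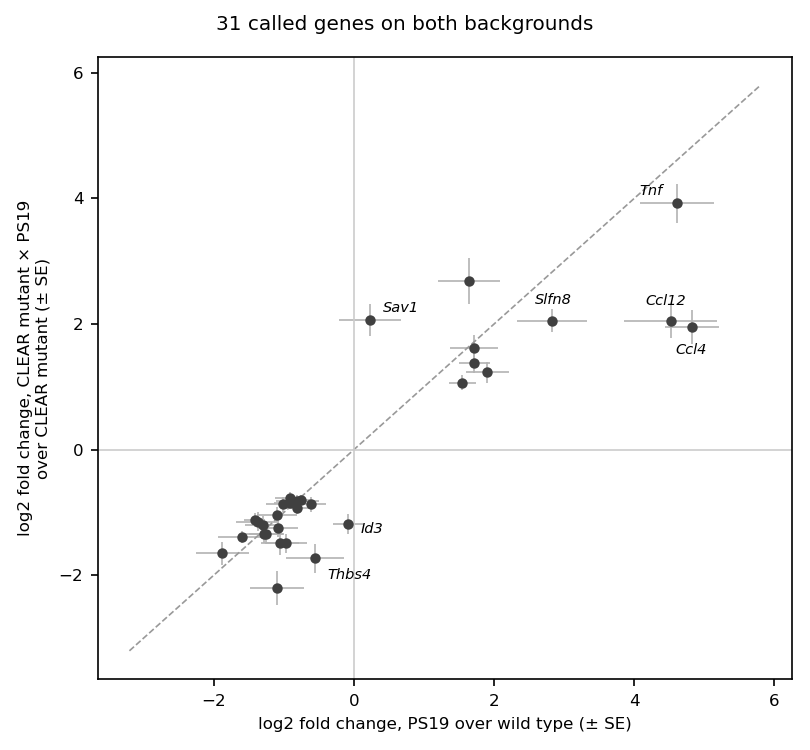
Log2 fold change of 31 called genes in PS19 over WT (horizontal) and in CLEAR_PS19 over CLEAR (vertical), with the dashed line at equality; the 3 chromosome 3 genes that mark the transgene are left out. Horizontal values come from the fit of all 14 nuclei libraries and vertical values from the fit of the 8. Ccl4 lies at 4.82 and 1.95, and Sav1 at 0.23 and 2.06.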

How the data were processed

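Nuclei from frozen hippocampus were profiled with 10x Genomics 3' chemistry. The authors deposited unnormalized counts of UMIs for each gene in each barcode, and per the file headers the software was Cell Ranger 5.0.1. The submitters' processing notes also name Seurat and the build mm10. The treatment of introns and strand and the barcode filter are not given in the sources used here. Counts of barcodes with 500 or more detected genes were summed per gene and library; doublets were not removed. Sums of 44879823 to 95914527 UMIs per library were tested with edgeR 4.0.16 (R 4.3.3, limma 3.58.1) by quasi-likelihood, with TMM normalization, filterByExpr, group and sex, and Benjamini-Hochberg adjustment over all tested genes. Alternatives were the replicate block, DESeq2 1.42.0, other filters and scalings, and libraries left out; those added after seeing the data were the pair-wise omissions, the block with DESeq2, the summed replicates with the block, the libraries left out of the list levels, and every setting of the marker-rich barcodes, including the UMI minimum and thinning. Exact permutation tests and tables used Python 3.11.15. The scripts were tested on simulated data. Some genes are not reported here.

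Same-numbered libraries were treated as pairs because their deviations from the group means correlated at r = 0.605, 0.630, 0.477 and 0.645 for numbers 1 to 4 over 21513 genes; CLEAR replicate 2 correlated more with CLEAR_PS19 replicate 1 (0.657), and the pairing comes from the data and the shared numbers, not from a stated litter or batch. Coordinates come from GENCODE M21 (GRCm38; 32235 of 32285 genes matched). The members, lists and tests were chosen with earlier results of these data known. Genes were named by rule: the transgene and mutation genes, up to 12 called genes per direction with at least 2 CPM in a group, up to 15 per direction by block p, the 3 of lowest p in each pathway list and the 3 of lowest interaction p per direction. Other called genes, list members and genes named for the marker-rich barcodes were chosen after their values were seen.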

Additional observations from a re-analysis of the deposited data

Results flagged for a closer look

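Of 186 groups of 4 libraries examined for the named genes and the cell type marker sums, 18 held a library far from the other 3 (a gap above Dixon's 95% critical value); chance flags about 1 in 20 groups. Among the astrocyte genes, S1pr1 had a low CLEAR library at 7.51 CPM and a high CLEAR_PS19 library at 4.69 CPM, and a high CLEAR_PS19 library stood at 279 CPM for Wdr17 and 16.5 CPM for Pla2g7, while a high CLEAR library stood at 11.6 CPM for Gm35552. Among the immune genes a high CLEAR_PS19 library stood at 5.99 CPM for Nlrc5, 34.9 CPM for C4b, 3.70 CPM for Ifi204 and 38.4 CPM for Ptprc. A low CLEAR_PS19 library stood at 5.61 CPM for H2-D1 and 1.04 CPM for Bst2. In CLEAR, the odd library was high at 40.7 CPM for Litaf and 19.1 CPM for Csf1r and low at 3.84 CPM for C4b and 24.4 CPM for Lgmn. For Piezo2, a mechanically gated channel, a high CLEAR_PS19 library stood at 28.3 CPM. The dentate granule marker sum had a high CLEAR_PS19 library at 2090 CPM and the fibroblast marker sum a high CLEAR library at 45.5 CPM. What sets these libraries apart was not tested.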

How the results depend on the processing

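No alternative value of a single named gene and no difference in share changed sign. Of 2205 such values of named genes, 1693 stayed on their side of the threshold, 293 passed it only under the alternative and 219 lost it. The count of 34 was 308 with the replicate block (305 with DESeq2 size factors), 383 with DESeq2, 771 with DESeq2 and the block, 53 without the filter on low counts, 20 without sex, 21 in the fit of all 14 libraries, 2 with replicates 1 and 2 summed, 4630 from replicates 1 and 2 only and 2 from replicates 3 and 4 with the block. It was 3 to 54 with a library left out, and 74, 30, 180 and 980 with the block without pair 1, 2, 3 or 4. Within astrocyte-marker-rich barcodes the count of 0 was 3 with the block, 1 with DESeq2 and 0 to 2 with a library left out. Within microglia-marker-rich barcodes the count of 20 was 84 with the block, 83 with DESeq2, 2 to 52 with a library left out, 0 with replicates 1 and 2 summed and 8 with the block as well. The interaction count of 0 was 56 with DESeq2 and 0 to 16 with a library left out. The difference in the microglia-marker-rich share, 2.29 points, was 1.45 at 100 marker UMIs, 1.66 without barcodes under 1000 UMIs, 1.69 after thinning, 1.44 to 2.85 with a library left out and 2.70 with replicates 1 and 2 summed; the astrocyte difference of -3.36 points was -3.52 with replicates 1 and 2 summed and -3.71 to -2.84 points with a library left out. Of 31 summed list levels, 11 changed sign in 25 of 279 alternatives, each by less than the spread between replicates; the fibroblast difference of -0.243 was 0.0073 without CLEAR replicate 3, and the other 10 were 0.116 or less in size. The log2 difference of the oligodendrocyte sum, 0.32, was 0.11 with a minimum of 1000 genes. The cause of these changes was not tested. Depth limits genes under 1 CPM, and counts in marker-rich barcodes rest on as few as 102 barcodes a library.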
